A study of Mus musculus with 16 samples.

Results

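The genes described here are 10 genes of mast cells and basophils, out of 47937 genes counted in the series: the granule proteases Gzmb, Cma1, Cpa3, Mcpt8 and Prss34, the IgE receptor subunits Fcer1a and Ms4a2, the histamine-forming enzyme Hdc, the transporter Slc45a3 and the transcription factor Gata2. They were taken as a list of names, and each name matched 1 Ensembl gene. Positions of genes are those of GENCODE vM21 on GRCm38, the build also called mm10. RNA was counted in MPP3 and MPP4 cells, the myeloid-biased and lymphoid-biased multipotent progenitors of mouse bone marrow, in 16 libraries that form 4 groups of 4. Both populations were sorted as lineage-depleted, Sca1+ cKit+ (LSK) cells that were CD150- and CD48+, and MPP4 cells were also sorted as Flt3+. All mice are labelled C57BL/6. Mice called WT are labelled Ebf1fl/fl Tie2Cre+/+ and mice called KO are labelled Ebf1fl/fl Tie2Cre +/cre, so by the labels both carry the floxed Ebf1 allele and only the KO mice carry Cre, whereas the design text of the series describes the controls as Ebf1-wt with Tie2Cre. Because Tie2 is active in vessel walls and in stem cells, recombination is not limited to the sorted progenitors. WT mice 1 and 2 were female and 3 and 4 male, at 12, 11, 12 and 11 weeks. KO mice 1 and 2 were male and 3 and 4 female, at 10, 9, 11 and 11 weeks. MPP3 and MPP4 libraries of the same genotype and number have the same sex and age in the labels and are treated here as 1 animal, written WT1 to KO4.

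Mast cells and basophils store proteases, histamine and proteoglycan in granules and release them when IgE on their high-affinity receptor is crosslinked. That receptor holds an alpha chain that binds IgE (Fcer1a), a beta chain (Ms4a2) and a gamma chain shared with other Fc receptors (Fcer1g). Both lineages arise from myeloid progenitors of the bone marrow that depend on GATA2, and their granule genes are known to be transcribed in progenitors before mature granules form. In bulk RNA such as this, more cells of one type and more RNA per cell cannot be told apart.

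Between 24823708 and 48703193 counts were assigned per library. Levels are given as CPM, the counts of a gene relative to the TMM-scaled total of its library, and a library without a count could hold up to 3 counts, which is 0.0619 to 0.118 CPM. A gene was called when edgeR's quasi-likelihood test gave a false discovery rate (FDR) under 0.1 over all 11831 genes with a mean above 100 counts in at least 1 group. The sort is visible in Flt3, which averaged 281 CPM in MPP3 and 1229 CPM in MPP4 of WT mice (log2 fold change -2.13, edgeR FDR = 7.71e-10). Ebf1 ranged in MPP3 from 0.150 to 2.19 CPM (WT) and from 0.151 to 2.23 CPM (KO). In MPP4 it ranged from 3.32 to 6.19 CPM in the libraries labelled WT and from 17.6 to 24.9 CPM in those labelled KO (log2 fold change 2.22 ± 0.64 SE, edgeR FDR = 0.188), which goes against the label. The count covers the whole gene, and the sources used here do not say which exons are deleted, so it does not check the deletion. WT and KO below therefore mean libraries with these labels.

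The sequence before the start of each gene was read from RefSeq (build GRCm38.p6), 250 bases per gene, to show what the members share beyond their place in the list. GATA factors bind the letters GATA with preferred flanks. The searches covered GATAA and, apart from it, GATAG, each with an A or a T before it, on both strands, together with CATGTG, an E-box that MITF, a mast cell transcription factor, can bind. The windows of 4 of the 10 members (Cpa3, Fcer1a, Ms4a2 and Prss34) held the first motif, as did 16.6% of the 32851 windows in the table. Cma1 and Hdc held the second, found in 13.3% of all windows, and Fcer1a and Prss34 held CATGTG, found in 12.3%. Gzmb, Mcpt8, Slc45a3 and Gata2 held none of these, but RefSeq gave 2 windows for Slc45a3 and for Gata2, of which 1 each was read. The RefSeq start of Hdc lies 621 bases from its GENCODE start, so its window lies within the gene span given below. The windows of 5 members follow, chosen because they cover a gene with 3 matches (Ms4a2), the member with the highest level per length in MPP3 (Cpa3), both members without a count in MPP4 (Cma1 and Gzmb) and the tested member that did not pass between the populations in either genotype (Prss34). They run from 5′ to 3′ in the direction of the gene and end at the base before its RefSeq start, and capitals mark the GATA matches.

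Cpa3, chr3:20242182-20242431, minus strand: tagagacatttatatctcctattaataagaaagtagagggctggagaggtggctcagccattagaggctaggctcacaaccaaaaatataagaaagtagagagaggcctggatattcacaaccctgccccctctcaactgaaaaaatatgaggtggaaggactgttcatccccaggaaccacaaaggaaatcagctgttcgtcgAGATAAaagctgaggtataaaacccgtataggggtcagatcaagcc

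Ms4a2, chr19:11623720-11623969, minus strand: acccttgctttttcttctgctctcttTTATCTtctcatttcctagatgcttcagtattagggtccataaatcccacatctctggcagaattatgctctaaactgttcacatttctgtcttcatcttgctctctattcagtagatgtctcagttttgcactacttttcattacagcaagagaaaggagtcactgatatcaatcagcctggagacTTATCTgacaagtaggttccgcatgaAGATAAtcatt

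Cma1, chr14:55944676-55944925, minus strand: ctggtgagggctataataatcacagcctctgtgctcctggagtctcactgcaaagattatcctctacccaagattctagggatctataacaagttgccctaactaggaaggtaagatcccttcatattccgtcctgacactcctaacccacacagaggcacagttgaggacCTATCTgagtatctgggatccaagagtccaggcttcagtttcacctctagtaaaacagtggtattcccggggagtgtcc

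Gzmb, chr14:56262335-56262584, minus strand: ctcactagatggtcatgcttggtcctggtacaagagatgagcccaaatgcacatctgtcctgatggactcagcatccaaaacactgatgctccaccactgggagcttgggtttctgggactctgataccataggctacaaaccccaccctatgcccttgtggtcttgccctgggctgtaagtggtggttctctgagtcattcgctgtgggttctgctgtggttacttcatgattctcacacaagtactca

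Prss34, chr17:25298144-25298393, plus strand: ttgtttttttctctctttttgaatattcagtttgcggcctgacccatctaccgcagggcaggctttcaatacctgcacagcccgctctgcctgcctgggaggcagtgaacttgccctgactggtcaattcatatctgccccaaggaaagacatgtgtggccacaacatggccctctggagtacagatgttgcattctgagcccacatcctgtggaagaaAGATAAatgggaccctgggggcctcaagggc

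The match in Cpa3 begins 46 bases before the start and that in Prss34 31 bases before it, while the 3 matches in Ms4a2 begin 224, 37 and 11 bases before it. A match is a run of letters and says nothing of binding in these cells.

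Most of the mast cell and basophil genes were higher in MPP3 than in MPP4. In WT mice, 8 of the 9 members that could be tested rose and none fell, and the same count was found in KO mice. Over all genes tested, 6.8% rose and 8.33% fell in WT, and 8.71% rose and 9.18% fell in KO. The MPP3 libraries lay above all MPP4 libraries for 8 of the 10 members in WT, as for 7.6% of all genes tested, and for 10 of 10 in KO (8.6%). Gzmb and Cma1 entered the test only through their mean in MPP3 KO, and Slc45a3 and Ms4a2 only through MPP3. The filter thus favoured a higher level in MPP3, and these 4 add nothing to either count. Of the 5 members with a mean above 100 counts in all 4 groups, 4 (Mcpt8, Cpa3, Hdc and Gata2) rose in both genotypes and Prss34 did not pass the test in either, and the MPP3 libraries lay above all MPP4 libraries for the same 4 in WT and for all 5 in KO. Fcer1a stayed under 100 counts in every group and was compared by an exact test.

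**Figure D1:**
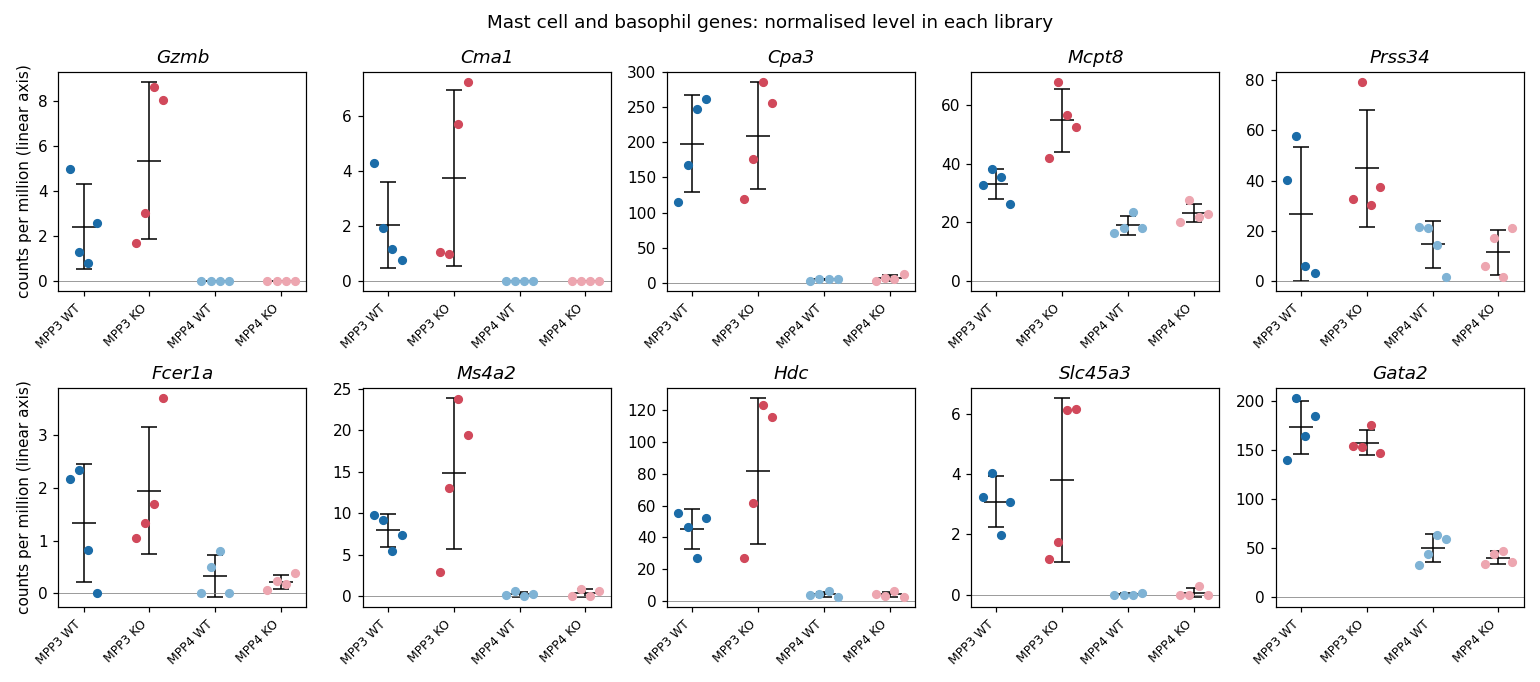
Level of each member in each library, in CPM on a linear axis with its own range per panel. Points are libraries in the order of replicates 1 to 4, and bars give the mean ± SD of the 4 libraries of a group. The MPP3 libraries lie above all MPP4 libraries of the same genotype in each panel except those of Prss34 and Fcer1a in WT, and Gzmb and Cma1 lie at 0 in all 8 MPP4 libraries.

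Among the proteases, Gzmb and Cma1 had counts only in MPP3. Gzmb (ENSMUSG00000015437, chromosome 14, 56258838 to 56262260, minus strand), a serine protease best known from cytotoxic lymphocytes and also made by mast cells, was at 4.996, 1.30, 0.770 and 2.58 CPM in MPP3 of WT1 to WT4 and at 1.70, 3.02, 8.62 and 8.07 CPM in MPP3 of KO1 to KO4. No Gzmb read was counted in any of the 8 MPP4 libraries. Against 3 counts per MPP4 library, the mean of Gzmb in MPP3 was at least 31.6-fold higher in WT (edgeR FDR = 0.000801). In KO it was at least 59.4-fold higher (edgeR FDR = 0.000338). WT1, at 4.996 CPM, was the highest library in the WT mean. Gzmb entered the test through MPP3 KO alone, so the filter favoured a higher level in MPP3. The 2 highest libraries were those of KO3 and KO4. The 13 cytotoxic lymphocyte genes of a marker list summed to between 434 and 594 CPM in MPP3 of WT mice, between 538 and 658 CPM in those of KO mice, between 257 and 351 CPM in MPP4 WT and between 284 and 437 CPM in MPP4 KO, most of it from Nkg7, which averaged 502 CPM in MPP3 WT. Of the list, 3 genes had enough counts to be tested (Nkg7, Ctsw and Klrb1c), and the other 10, Prf1, Gzma, Gzmc, Gzmk, Gzmm, Ncr1, Klrd1, Eomes, Cd3e and Cd8a, summed to 310 counts at most over the 4 libraries of a group (Klrd1 in MPP4 WT). Gzmc had no count in any library, Gzmk none in MPP3 WT, Eomes, Gzma, Gzmk and Ncr1 none in MPP4 WT, and Ncr1 none in MPP4 KO. Their part in the level of Gzmb was not tested.

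Cma1 (ENSMUSG00000022225, chromosome 14, 55941451 to 55944675, minus strand) encodes mast cell chymase. It was at 4.30, 1.93, 1.16 and 0.759 CPM in MPP3 WT, against 1.05, 0.996, 5.73 and 7.27 CPM in KO, and had no count in MPP4. The fold of its mean was at least 26.7 in WT (edgeR FDR = 0.0022) and at least 41.7 in KO (edgeR FDR = 0.00111). WT1, at 4.30 CPM, was the highest library in the WT mean. Cma1 too entered the test through MPP3 KO alone. Again KO3 and KO4 were the highest, and the other KO mice lay within the range of WT.

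Cpa3 (ENSMUSG00000001865, chromosome 3, 20215620 to 20242181, minus strand), the carboxypeptidase of mast cell granules, is also transcribed in early progenitors, and had the highest mean of the members in MPP3. It was at 116, 168, 248 and 262 CPM in MPP3 WT, and in KO at 120, 177, 286 and 256 CPM, against 2.88, 5.72, 4.95 and 5.36 CPM in MPP4 WT and 2.94, 6.80, 5.26 and 12.3 CPM in MPP4 KO. The populations did not overlap. The log2 fold change was 5.39 ± 0.43 (SE) in WT (edgeR FDR = 3.18e-07) and 4.93 ± 0.42 in KO (edgeR FDR = 5.84e-07), and within the 8 mice MPP3 was 20.8 to 54.4 times as high as MPP4.

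Mcpt8 (ENSMUSG00000022157, chromosome 14, 56082166 to 56085273, minus strand), a protease of mouse basophils, differed less. It was at 32.9, 38.1, 35.6 and 26.1 CPM in MPP3 WT, against 42.1, 68.0, 56.7 and 52.6 CPM in KO, and reached 16.2, 18.1, 23.6 and 17.9 CPM in MPP4 WT and 20.1, 27.5, 21.9 and 22.9 CPM in MPP4 KO. MPP4 cells of both genotypes carried counts of this gene, 3125 over the 4 WT libraries. The log2 fold change of MPP3 over MPP4 was 0.81 ± 0.16 in WT (edgeR FDR = 0.00277) and 1.25 ± 0.16 in KO (edgeR FDR = 4.83e-05), and MPP3 was higher in 8 of 8 mice, by 1.46 to 2.59 times.

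Prss34 (ENSMUSG00000056399, chromosome 17, 25298394 to 25300165, plus strand) is another basophil and mast cell protease. It was at 40.4, 57.9, 5.75 and 3.16 CPM in MPP3 WT, at 32.5, 79.4, 30.2 and 37.3 CPM in MPP3 KO, at 21.4, 21.1, 14.4 and 1.41 CPM in MPP4 WT and at 6.03, 16.9, 1.67 and 21.0 CPM in MPP4 KO. In WT the populations overlapped and WT3 was lower in MPP3 than in MPP4. The log2 fold change was 0.88 ± 0.86 in WT (edgeR FDR = 0.633) and 1.97 ± 0.88 in KO (edgeR FDR = 0.172), and 7 of 8 mice were higher in MPP3. In WT the log2 fold change ranged from 0.17 without WT2 of MPP3 to 1.25 without WT4 of MPP3. With the mouse as a replicate block, the KO contrast passed (log2 fold change 2.28, edgeR FDR = 0.00279) and the WT contrast did not (0.57, edgeR FDR = 0.454). With this block 28.3% of all genes were called in KO and 24.8% in WT.

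Gzmb, Cma1 and Mcpt8 lie in 1 gene cluster of chromosome 14, which holds 15 protein-coding genes over 320810 bases from Cma1 to Gzmb in the annotation. This stretch was looked at because of its position, after the values of the members had been seen. Only 4 of its genes had enough counts to be tested, the 3 members and Ctsg, which encodes cathepsin G of neutrophil and mast cell granules and lies next to Mcpt8. Ctsg averaged 391 CPM in MPP3 and 123 CPM in MPP4 of WT mice (log2 fold change 1.66, edgeR FDR = 1.88e-05). Of the other genes, 8 had no count in any library, among them the mucosal mast cell protease Mcpt1 and 6 granzyme genes, and 3 (Cma2, Mcpt2 and Mcpt4) had some count, but 100 or fewer over all libraries.

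Of the IgE receptor subunits, Fcer1a was rare in both populations and Ms4a2 in MPP4. Ms4a2 (ENSMUSG00000024680, chromosome 19, 11615523 to 11623719, minus strand), the beta chain, was at 9.81, 9.18, 5.46 and 7.41 CPM in MPP3 WT, while KO1 to KO4 gave 2.93, 13.1, 23.9 and 19.4 CPM. In MPP4 it was at 0.142, 0.711, 0 and 0.259 CPM in WT and at 0, 0.884, 0 and 0.713 CPM in KO. The lowest MPP3 library lay above the highest MPP4 library, and the log2 fold change was 4.95 ± 0.98 in WT (edgeR FDR = 0.00237) and 5.15 ± 0.95 in KO (edgeR FDR = 0.00123). With a library or mouse left out it ranged from 4.48 to 5.91 in WT and from 4.46 to 5.91 in KO. Ms4a2 entered the test through MPP3 alone, so the filter favoured a higher level there. Fcer1a (ENSMUSG00000005339, chromosome 1, 173221284 to 173227214, minus strand), the chain that binds IgE, was at 2.17, 2.33, 0.818 and 0 CPM in MPP3 WT, while KO1 to KO4 gave 1.05, 1.33, 1.70 and 3.70 CPM there. In MPP4 it was at 0, 0.508, 0.805 and 0 CPM in WT and at 0.0577, 0.241, 0.185 and 0.384 CPM in KO. In KO the populations did not overlap and the difference of means was 1.73 CPM (exact permutation test, two-sided, p = 0.0286, the smallest that 70 splits allow), but this test takes the 8 libraries as independent. With the mice as pairs, a test chosen after seeing the data, MPP3 was higher in 4 of 4 mice with p = 0.125 (exact sign-flip permutation test, two-sided), the smallest that 4 mice allow, and edgeR without the filter gave FDR = 0.183. In WT they overlapped, with a difference of 1.00 CPM (exact permutation test, two-sided, p = 0.171), and WT4 had no count in either population. The gamma chain Fcer1g was found in both populations, at 87.5 CPM in MPP3 and 52.1 CPM in MPP4 of WT mice (log2 fold change 0.75, edgeR FDR = 0.0241).

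Hdc (ENSMUSG00000027360, chromosome 2, 126593667 to 126619299, minus strand) encodes histidine decarboxylase, which makes histamine. It was at 55.4, 46.6, 26.9 and 52.5 CPM in MPP3 WT, at 27.0, 61.4, 123 and 116 CPM in MPP3 KO, at 3.85, 4.43, 5.98 and 2.52 CPM in MPP4 WT and at 4.30, 3.05, 6.26 and 2.74 CPM in MPP4 KO. All 8 MPP3 libraries were above all 8 MPP4 libraries. The log2 fold change was 3.43 ± 0.43 in WT (edgeR FDR = 3.9e-05) and 4.33 ± 0.45 in KO (edgeR FDR = 4.56e-06). Slc18a2, the vesicular monoamine transporter that loads histamine into granules, averaged 129 CPM in MPP3 and 17.3 CPM in MPP4 of WT mice (log2 fold change 2.90, edgeR FDR = 4.48e-08).

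Slc45a3 (ENSMUSG00000026435, chromosome 1, 131962967 to 131982969, plus strand), a membrane transporter of the sugar transporter type, was at 3.25, 4.02, 1.97 and 3.06 CPM in MPP3 WT, while KO1 to KO4 gave 1.18, 1.76, 6.13 and 6.16 CPM. In MPP4 only WT4, with 3 counts, and KO3, with 8 counts, had any. The ratio of summed counts was 161 in WT (exact 95% counting interval 54.6 to 782, edgeR FDR = 0.000298) and 66.7 in KO (33.6 to 155, edgeR FDR = 0.000537). Each ratio rests on that 1 MPP4 library. Without it no MPP4 count was left. Against 3 counts per library, the mean of Slc45a3 in MPP3 was then at least 39.4-fold higher in WT and at least 45.8-fold higher in KO. Slc45a3 entered the test through MPP3 alone, so the filter favoured a higher level there. Its exons overlap those of the gene Gm29103, and how the counting treated shared reads is not given in the sources used here.

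Gata2 (ENSMUSG00000015053, chromosome 6, 88193891 to 88207032, plus strand) is a transcription factor of stem cells and of the mast cell and basophil lineages. It was at 140, 203, 164 and 184 CPM in MPP3 WT, at 154, 152, 175 and 146 CPM in MPP3 KO, at 32.2, 44.2, 63.3 and 58.7 CPM in MPP4 WT and at 33.9, 43.8, 47.2 and 35.6 CPM in MPP4 KO. The 8 libraries of each population did not overlap. The log2 fold change was 1.80 ± 0.18 in WT (edgeR FDR = 3.31e-06) and 1.97 ± 0.18 in KO (edgeR FDR = 1.11e-06). Across the 8 MPP3 libraries the highest was 1.45 times the lowest for Gata2, against 25.1 times for Prss34 and 11.2 times for Gzmb.

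**Figure D2:**
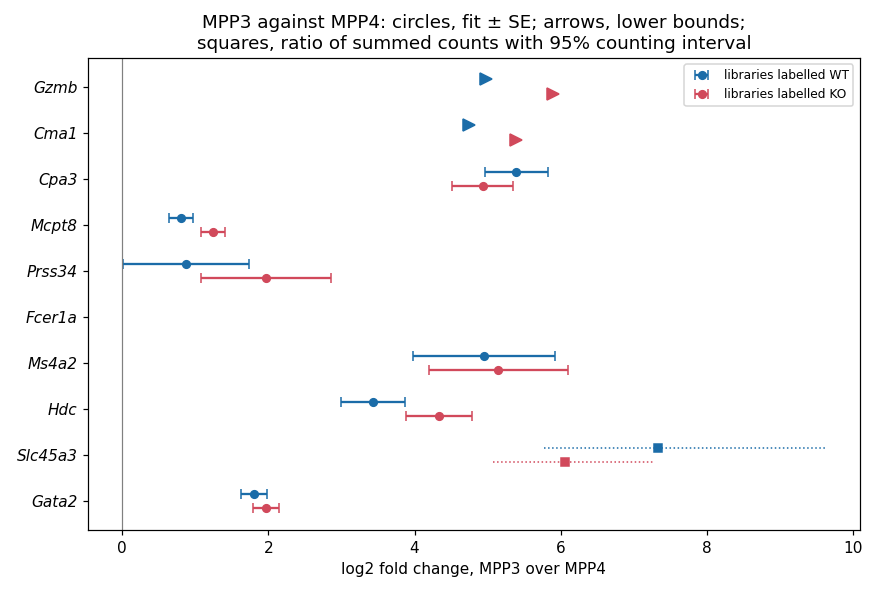
Fold of MPP3 over MPP4 on the log2 scale in WT and in KO. Circles with bars are fitted log2 fold changes ± SE, arrows are lower bounds against 3 counts per library for Gzmb and Cma1, squares with dotted lines are ratios of summed counts with their 95% counting interval for Slc45a3, and Fcer1a has no fitted value. Values lie above 0 throughout, from 0.81 for Mcpt8 in WT to 7.33 for Slc45a3 in WT.

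Per kilobase of exon, the members kept nearly the same order in both genotypes but not in both populations. In MPP3 WT, Cpa3 stood at 131 ± 45.4 CPM per kb (SD, n = 4) and its libraries did not overlap those of Mcpt8 (33.2 ± 5.19), which overlapped Gata2 (32.0 ± 5.01), which in turn overlapped Prss34 (22.0 ± 22.0). Hdc followed at 7.10 ± 2.01, overlapped Prss34 and did not overlap Ms4a2 (2.83 ± 0.69). Ms4a2, Cma1, Gzmb, Fcer1a and Slc45a3 each overlapped the next one down to 0.863 ± 0.237. In MPP4 WT, Mcpt8 was the highest at 19.0 ± 3.24 CPM per kb, overlapping Prss34 (11.9 ± 7.66), and Cpa3 stood at 3.12 ± 0.839, below Gata2 (9.19 ± 2.62). On the length of the longest transcript, Gata2 in MPP3 WT came to 48.3 CPM per kb and passed Mcpt8 (35.1).

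The other genes of these lineages were counted by list. Of 13 genes for further proteases and granule proteins, 6 could be tested, and 4 rose in MPP3 in WT and 5 in KO, with none lower, beside 6.8% of all genes that rose in WT and 8.71% in KO. Of the 4 in WT, Tpsb2 and Rab27b passed the filter through MPP3 alone, which leaves Ctsg, also a gene of the neutrophil list below, and Srgn, named after its values were seen. Tpsb2, a mast cell tryptase, was at 147, 64, 33 and 0 counts in MPP3 of WT1 to WT4 and at 0, 78, 121 and 267 counts in MPP3 of KO1 to KO4, and had no count in MPP4 WT. Its mean in MPP3 WT, with WT1 the highest and WT4 at 0, was at least 25.4-fold higher (edgeR FDR = 0.027). Its near copy Tpsab1 had no count in any library, and reads shared by the 2 genes may have been split or dropped. Tpsb2 passed the filter through MPP3 KO alone, and Rab27b, Il1rl1, Gata1, Alox5, Prg2, Pf4 and Jchain, named here and below, passed it through MPP3 groups alone, so that a higher level in MPP3 was a condition of their test. Rab27b, which docks secretory granules, rose by 3.17 on the log2 scale (edgeR FDR = 0.00176). Of 16 IgE and cytokine receptor genes, 12 were tested. In WT 6 rose and 3 fell, beside 6.8% and 8.33% of all genes, and in KO 5 and 3, beside 8.71% and 9.18%. Those lower in WT, named after their values were seen, were Il18r1 (-0.82, edgeR FDR = 0.0555), Itgb7 (-0.80, edgeR FDR = 0.00084) and Il4ra (-0.59, edgeR FDR = 0.00944), of which the first and last encode receptor chains for IL-18 and IL-4 and Itgb7 an integrin chain. Il1rl1, the IL-33 receptor of mast cells and basophils, had a log2 fold change of 3.55 (edgeR FDR = 0.0635) in WT and 1.67 in KO (edgeR FDR = 0.378). Fcgr3, a low-affinity IgG receptor, rose by 3.26 (edgeR FDR = 1.19e-05) and Cd63, a granule membrane protein, was at 293 CPM in MPP3 and 104 CPM in MPP4 of WT mice (edgeR FDR = 2.5e-09). Kit, the stem cell factor receptor and part of the sort, averaged 779 CPM in MPP3 and 547 CPM in MPP4 of WT mice (log2 fold change 0.51, edgeR FDR = 5.81e-05). The IL-3 receptor chains Il3ra (0.02, edgeR FDR = 0.963) and Csf2rb2 (0.07, edgeR FDR = 0.932) did not pass, whereas the shared chain Csf2rb did (0.39, edgeR FDR = 0.0213).

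All 20 transcription factor genes of the lineage list were tested, and 4 rose and 2 fell in WT, beside 6.8% and 8.33% of all genes, so that the count that fell is near the share of all genes, with a list median of 0.06 on the log2 scale beside -0.00039 for all genes. Gata1, which acts with Gata2 in these and in erythroid lineages, rose by 2.92 (edgeR FDR = 0.000911), Tfec rose by 1.22 (edgeR FDR = 0.00084) and Nfil3 had a log2 fold change of -1.86 (edgeR FDR = 9.89e-05). Mitf, named after its values were seen, averaged 5.35 CPM in MPP3 and 3.84 CPM in MPP4 of WT mice (edgeR FDR = 0.525). Of 14 histamine and lipid mediator genes, 10 were tested, and 6 rose in each genotype with none lower. Over all genes, 6.8% rose in WT and 8.71% in KO. Those that rose in WT include Alox5, which passed the filter through MPP3 alone. Alox5, the leukotriene-forming lipoxygenase, rose by 4.85 (edgeR FDR = 0.0016) and Hnmt, which inactivates histamine, by 1.21 (edgeR FDR = 1.64e-06) in WT.

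Genes of other myeloid cells were higher in MPP3 as well. The list counts that follow stand beside 6.8% of all genes that rose and 8.33% that fell in WT, and 8.71% and 9.18% in KO. All 5 neutrophil primary granule genes tested rose in both genotypes, among them Ms4a3 (4.81, edgeR FDR = 5.97e-06), Elane (4.58, edgeR FDR = 1.66e-05) and Mpo (1.69, edgeR FDR = 8.69e-05) in WT, and their summed level ranged from 5615 to 9393 CPM in MPP3 WT and from 2032 to 2707 CPM in MPP4 WT, with no gene of the list at 0. The 2 eosinophil genes tested, Prg2 (4.59, edgeR FDR = 0.00459) and Siglecf (1.80, edgeR FDR = 9.13e-05), rose in WT and in KO, and the 9 genes of that list summed to between 33.0 and 66.3 CPM in MPP3 WT and between 4.67 and 11.7 CPM in MPP4 WT, where Ear1 and Ear6 were at 0. Prg2 passed the filter through MPP3 alone, which leaves Siglecf. Of 9 megakaryocyte and erythroid genes tested, 5 rose in WT and 7 in KO, with Apoe (3.57, edgeR FDR = 7.15e-09), Itga2b (3.08, edgeR FDR = 3.99e-07) and Pf4 (1.73, edgeR FDR = 0.00681) in WT. Of these, Pf4 passed the filter through MPP3 alone. The cytotoxic list gave 1 gene higher (Nkg7, 0.86, edgeR FDR = 0.00124) and 1 lower (Ctsw, -0.64, edgeR FDR = 0.00542) of 3 tested. Of 6 plasma cell genes, 2 rose (Igkc, 5.35, edgeR FDR = 0.0371, and Jchain, 5.17, edgeR FDR = 0.0305) and 2 fell in WT, with Sdc1 at -3.71 (edgeR FDR = 2.78e-06). In KO 1 rose and 3 fell. Jchain passed the filter through MPP3 alone. Igkc summed to 27930 counts over the MPP3 WT libraries and to 2306 over those of MPP3 KO, where 1 library held them all. Lineage depletion used antibodies against CD3, B220, CD11b, Gr1 and Ter119, of which CD11b is also carried by basophils, and the gate required cKit, which mast cells carry and mature basophils largely lack. The part of such cells in these levels was not tested. Among the sort gate genes, Cd48 (0.42, edgeR FDR = 0.00923) rose in MPP3 of WT mice, and Ly6a, which encodes Sca1 (-0.70, edgeR FDR = 0.00135), and Cd34 (-0.13, edgeR FDR = 0.0966) fell.

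The Ebf1 genotype labels were compared next, to ask whether the mast cell and basophil genes differ between libraries labelled KO and WT for this B-lineage transcription factor. In MPP3, 0 of 9 tested members were called by edgeR, as were 0.0676% of all genes, and 2 had an unadjusted p under 0.05 (Mcpt8 and Hdc), as had 10.5% of all genes. DESeq2 called 1 member, Mcpt8, and 1.82% of all genes. In MPP4, 0 of 9 were called by edgeR (0.0169% of all genes) and 0 of the 6 with an adjusted p by DESeq2 (2.58% of all genes), and none had an unadjusted p under 0.05, against 12.8% of all genes. Gzmb and Cma1, with no count in any MPP4 library, could not be called there, which leaves 7 members. Of the genes in the other lists, Kit alone was called between genotypes, in MPP4 (log2 fold change -0.42, edgeR FDR = 0.056).

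Mcpt8 was the only member whose MPP3 libraries did not overlap between the genotypes. Its 4 KO values, 42.1 to 68.0 CPM, lay above the 4 WT values, 26.1 to 38.1 CPM, a separation in this direction shared by 2.17% of all genes tested. The log2 fold change was 0.73 ± 0.16 (edgeR FDR = 0.147, DESeq2 FDR = 0.00485), and over the alternatives the FDR ranged from 0.00485 to 0.423. The 5 neutrophil granule genes, Ctsg among them, were above 0 in the same contrast, with a median log2 fold change of 0.84, and none was called. Ctsg, the neighbour of Mcpt8, had a log2 fold change of 0.87 ± 0.19 in MPP3 (edgeR FDR = 0.147) and of 0.93 ± 0.19 in MPP4 (edgeR FDR = 0.110). Their part in the level of Mcpt8 was not tested. In MPP4 the change of Mcpt8 was 0.29 ± 0.16 (edgeR FDR = 0.477), with KO values of 20.1 to 27.5 CPM and WT values of 16.2 to 23.6 CPM.

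The other members overlapped in MPP3. Their log2 fold changes were 1.15 ± 0.66 for Gzmb (edgeR FDR = 0.608), 0.89 ± 0.75 for Cma1 (edgeR FDR = 0.752), 0.90 ± 0.77 for Ms4a2 (edgeR FDR = 0.75), 0.85 ± 0.39 for Hdc (edgeR FDR = 0.456) and 0.75 ± 0.85 for Prss34 (edgeR FDR = 0.817). Values nearer to 0 were found for Slc45a3 (0.31 ± 0.70, edgeR FDR = 0.927), Cpa3 (0.08 ± 0.35, edgeR FDR = 0.968) and Gata2 (-0.14 ± 0.17, edgeR FDR = 0.839). For Fcer1a the difference of means was 0.614 CPM (exact permutation test, two-sided, p = 0.486). In MPP4, the changes of Cpa3 (0.54 ± 0.39, edgeR FDR = 0.578), Gata2 (-0.31 ± 0.18, edgeR FDR = 0.478), Hdc (-0.05 ± 0.42, edgeR FDR = 0.974), Ms4a2 (0.70 ± 1.02, edgeR FDR = 0.805) and Prss34 (-0.34 ± 0.86, edgeR FDR = 0.907) also did not pass, and Gzmb, Cma1 and Slc45a3 were at or near 0 in both genotypes.

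**Figure D3:**
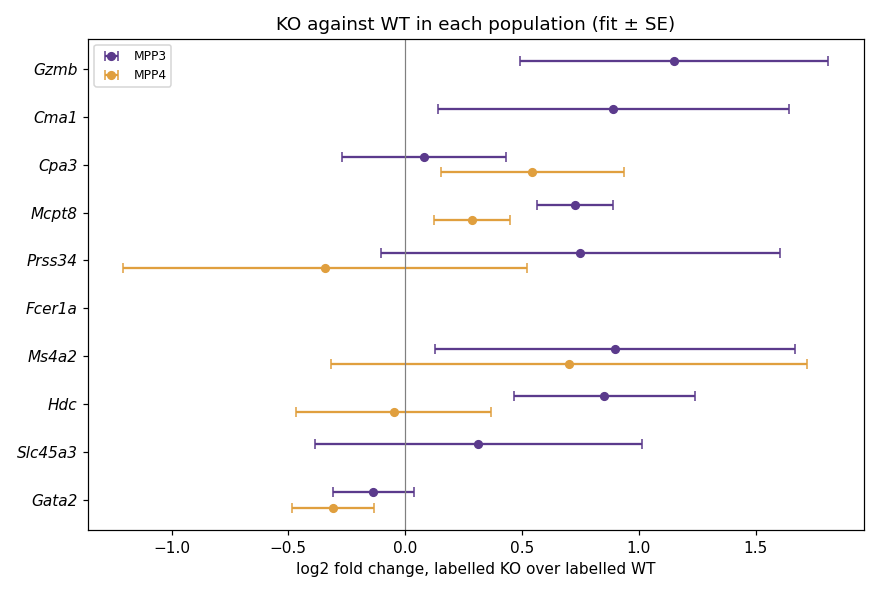
Fold of KO over WT on the log2 scale in MPP3 and in MPP4, as fitted log2 fold change ± SE. Fcer1a has no fitted value, and Gzmb, Cma1 and Slc45a3 are not drawn for MPP4, where most libraries had no count. In MPP3 the bar of Mcpt8 (0.73 ± 0.16) is narrow and lies above 0, while those of Cpa3 and Gata2 lie close to 0 and the others are wide.

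Whether the genotype acted differently in the 2 populations was tested as an interaction. Without a block, no member was called by edgeR (0% of all genes) or by DESeq2 (0.0676%), none had an unadjusted p under 0.05, against 2.28% of all genes, and the smallest was that of Mcpt8 (difference of log2 fold changes, MPP3 minus MPP4, 0.44 ± 0.23, unadjusted p = 0.0712 and FDR = 1 in edgeR). For Gzmb and Cma1, with no MPP4 count, the interaction cannot be estimated, and these counts rest on the other 7 members. With the mouse as a replicate block, 2 members had an unadjusted p under 0.05, as had 5.88% of all genes, and none was called (0.0169% of all genes): Mcpt8 (0.43 ± 0.16, unadjusted p = 0.0161, edgeR FDR = 0.776) and Prss34 (1.71 ± 0.65, unadjusted p = 0.0201, edgeR FDR = 0.806).

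In MPP3 KO, 2 libraries stood high for most members. KO3 or KO4 gave the highest of the 8 MPP3 libraries for Gzmb, Cma1, Slc45a3, Cpa3, Fcer1a, Ms4a2 and Hdc. KO3 was among the highest 2 libraries for 7 of the 10 members and KO4 for 6. In Ms4a2, KO1 at 2.93 CPM was the lowest of the 8 libraries and KO3 at 23.9 CPM the highest. The summed level of the 5 neutrophil granule genes was 6692, 12166, 15621 and 15679 CPM in MPP3 of KO1 to KO4, highest in the same 2 libraries, and that of the 9 eosinophil genes was 27.4, 59.5, 52.6 and 70.1 CPM. In MPP4, KO3 and KO4 did not stand high together, at 0 and 0.713 CPM for Ms4a2, 6.26 and 2.74 CPM for Hdc and 1.67 and 21.0 CPM for Prss34. Each mouse gave 1 MPP3 library, so animal and library cannot be told apart. KO3 and KO4 were the female KO mice and, at 11 weeks against 10 and 9, also the older ones, so that sex and age cannot be told apart within KO. The part of other cells in this spread was not tested, and with sex as a term Mcpt8 was the 1 member called between genotypes, as were 0.49% of all genes. With KO3 and KO4 left out together, an alternative chosen after seeing the data, Slc45a3 had a log2 fold change of -1.07 (edgeR FDR = 0.588), Cpa3 of -0.42 (edgeR FDR = 0.713) and Hdc of -0.04 (edgeR FDR = 0.982) in MPP3, Ms4a2 one of 0.01 (edgeR FDR = 0.998), and Mcpt8 stayed at 0.73 (edgeR FDR = 0.379). Gzmb and Cma1 were then under the filter. The higher level in MPP3 than in MPP4 of KO mice was again called for Cpa3, Gata2, Mcpt8, Ms4a2, Slc45a3 and Hdc, which was 6 of the 7 members tested, where 5.17% of all genes rose. Ms4a2 and Slc45a3 again had a mean above 100 counts in MPP3 alone, so the call says something of the other 4 only.

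**Figure D4:**
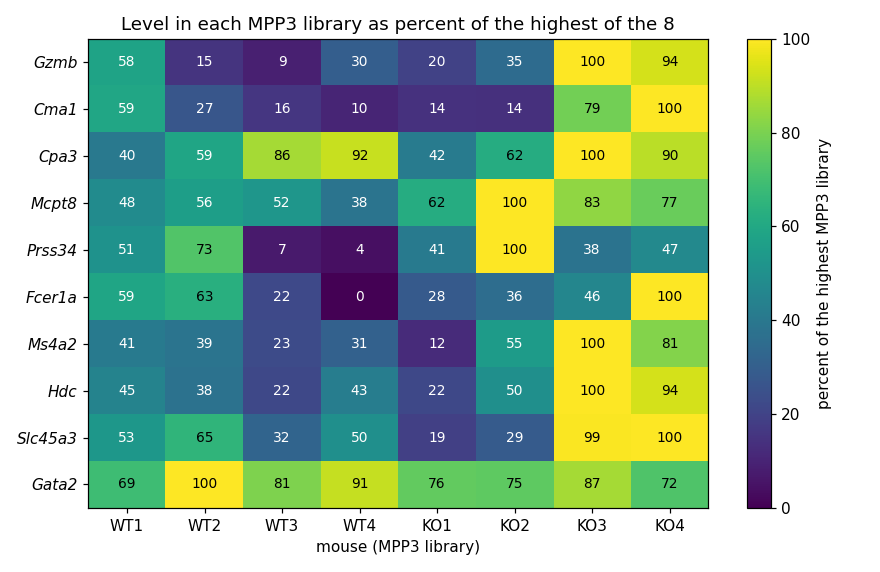
Level of each member in each of the 8 MPP3 libraries, as percent of the highest of the 8. Columns are mice and rows are genes, with brighter cells for higher values. KO3 and KO4 stand at 78.9% to 100% for Gzmb, Cma1, Ms4a2, Hdc and Slc45a3, whereas Gata2 lies between 69.0% and 100% in all mice and Prss34 falls to 7.24% and 3.98% in WT3 and WT4.

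The genes most like the members over the 8 MPP3 libraries, by Pearson's r with the mean z-score of the 9 members in the fit, were Pam16 (r = 0.985), Clec7a (0.975), Brd7 (0.972), Selenos (0.962), Alas1 (0.960), Tfec (0.959), Fcer1g (0.959) and Igsf6 (0.957). These r values are a description of 8 libraries, in which most members were highest in the same 2 libraries. Of the 8 genes, Fcer1g encodes a subunit of the same receptor as Fcer1a and Ms4a2. Pam16 and Brd7 were about as high in MPP4 as in MPP3, at 20.4 and 20.6 CPM for Pam16 and 101 and 101 CPM for Brd7 in WT, whereas Igsf6 averaged 35.2 CPM in MPP3 and 3.46 CPM in MPP4.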

How the data were processed

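RNA-seq libraries of sorted MPP3 and MPP4 cells came from 4 mice per genotype. Per the labels and the study's methods, polyA RNA was made into libraries with a low-input NEBNext kit and sequenced in pairs of 100 bases, reads were aligned to mm10 with STAR 2.7.3a, and the authors deposited raw counts per gene made with featureCounts 2.0.0. The annotation release and the strand setting are not given in the sources used here. The authors' table of values divided by DESeq2 size factors (a normalised signal they deposited, with DESeq2 1.28.1 named) was used only to check the counts.

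Raw counts of all 16 libraries were joined, and 47224 of 47937 Ensembl ids were matched to symbols of GENCODE vM21 (GRCm38), which also gave lengths and positions. A gene was tested if at least 1 group averaged over 100 counts, with edgeR 4.0.16 (TMM, quasi-likelihood F-test, 4 group means, Benjamini-Hochberg over all genes), and CPM used the TMM-scaled totals. A gene under the filter was compared by an exact permutation test over 70 splits. The fit was tested on simulated data. Promoter windows came from RefSeq (GRCm38.p6). The members and lists were chosen with earlier results of these data known. Genes named beyond the members were those sharing a receptor or complex with one, up to 3 per list with the largest change called in WT, the sort gate genes and the 8 most alike genes, and any other is named after its values were seen. Azu1 was in a list and was not matched.

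Alternatives were another normalisation (RLE), DESeq2, other filters, sex or age as a term, only the 8 libraries compared, a replicate block, and leaving out each library or mouse, with DESeq2 1.42.0 for the second. Deviations of MPP3 and MPP4 libraries with the same number in a genotype correlated in all 8 pairs (r = 0.277 to 0.504, each highest with its own number). These libraries were treated as pairs from 1 mouse, which the correlation alone does not show. WT and KO libraries with the same number did not correlate in this way (r = -0.423 to 0.020), but their mice also differ in sex. In all 24 pairs of replicates the counts differed by more than sampling noise, at 25.6 to 86.8 chi-square units per gene. Bounds and intervals cover counting error only. Totals of 24823708 to 48703193 counts per library leave the spread between libraries as the limit for members with counts in both populations, and for members without a count in MPP4 the level that 3 counts stand for. Replicates are separate biological replicates per the labels.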

Additional observations from a re-analysis of the deposited data

Results flagged for a closer look

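In 36 groups of 4 libraries with counts of a member, 3 had a library whose gap to the nearest of the others exceeded Dixon's 95% limit, which chance passes in about 1 of 20 groups. For both groups of Slc45a3 the limit says nothing, since any value above 0 passes it where the other 3 libraries are at 0, and 3 counts is also what a library at 0 allows. Prss34 in MPP3 KO was at 79.4 CPM in KO2, with the others at 30.2 to 37.3 CPM. Slc45a3 in MPP4 had a level above 0 in WT4 only among WT (0.0706 CPM, from 3 counts) and in KO3 only among KO (0.296 CPM, from 8 counts), with the other libraries of each group at 0.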

How the results depend on the processing

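Of the values of the 9 tested members in MPP3 against MPP4, all 293 in WT and 290 of 293 in KO kept their direction and their side of the threshold. These values include Gzmb, Cma1, Slc45a3 and Ms4a2, for which the filter favoured a higher level in MPP3. They leave out Fcer1a, which is given below. From 6 to 8 members in WT and 6 to 9 in KO were called. In MPP4 KO against WT and in the interaction 0 members were called under each alternative run. In MPP3 KO against WT, 0 members became 1, Mcpt8, under DESeq2, with sex as a term (edgeR FDR = 0.0998) and with the replicate number as a replicate block (edgeR FDR = 0.0655). The labels do not say that this number pairs WT with KO. Leaving out a library or mouse gave 0 to 1, the 1 without WT3 (edgeR FDR = 0.0889) or KO1 (edgeR FDR = 0.0370) of MPP3 or mouse KO1 (edgeR FDR = 0.0455), where the calls over all genes also rose, from 8 to 137, 72 and 82. In edgeR the mouse block changed only the call of Prss34 in KO (edgeR FDR = 0.00279), which was also called among only the 8 libraries compared (edgeR FDR = 0.0533) or without mouse WT4 (edgeR FDR = 0.0743). Over all genes that block called 2930 in WT and 3346 in KO in place of 1790 and 2116, and 1156 were called in KO without KO3 and KO4. Between genotypes in MPP3 and MPP4, 8 and 2 genes became 215 and 305 with DESeq2, 58 and 183 with sex as a term, 29 and 23 with the replicate number as a block, 1 and 1 with age as a term, and 1 and 20 among only the 8 libraries compared.

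With a library or mouse left out, log2 fold changes of KO over WT in MPP3 ranged from 0.82 (without KO3) to 1.79 (without WT1) for Gzmb, from 0.61 (without WT4) to 1.57 (without WT1) for Cma1, which was under the filter without KO4 and at 2.19 with age as a term, from 0.32 (without KO2) to 1.46 (without WT2) for Prss34, from 0.57 (without KO3) to 1.24 (without KO1) for Ms4a2 and from 0.59 (without KO3) to 1.14 (without KO1) for Hdc, and none of these was called. Log2 fold changes between genotypes that missed the threshold also turned sign. Slc45a3 in MPP3 was -0.15 with the replicate block, ranged from -0.018 to 0.61 with a library or mouse left out, negative without KO3 or KO4, and was -1.07 without both, an alternative chosen after seeing the data. Without both, Cpa3 was -0.42 and Hdc -0.040 in MPP3. Cpa3 ranged from -0.11 to 0.27 with a library or mouse left out, negative without WT1, KO3 or KO4. In MPP4, Hdc was 0.41 with age as a term and ranged from -0.32 to 0.18, positive without WT3, KO2 or KO4. Ms4a2 there ranged from -0.010 to 1.66, negative without KO2, and Prss34 from -0.81 to 0.012, positive without KO3. The KO minus WT difference of Fcer1a, -0.111 CPM in MPP4, ranged from -0.220 to 0.048 CPM, positive without WT3, and in MPP3, at 0.614 CPM, it ranged from 0.030 CPM, without KO4, to 0.947 CPM. Between populations in KO, the 1.73 CPM of Fcer1a had p = 0.125 in an exact sign-flip test with the mouse as a replicate block, chosen after seeing the data. The causes were not tested. On the longest transcript, levels per kb rose by more than 1 SD for Gata2 in all 4 groups and for Hdc in all but MPP3 KO.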

Other observations

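Cpa3 in MPP3 was at 116 and 120 CPM in WT and KO of number 1, at 168 and 177 CPM for number 2, at 248 and 286 CPM for number 3 and at 262 and 256 CPM for number 4. The labels do not say that these numbers mark a shared day or litter. Over all genes the numbers did not pair the 2 genotypes, but same-numbered mice differ in sex, so that check cannot decide it. The comparison of Cpa3 by number was made after the values were seen.

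Low counts of further genes of mast cells and basophils were found. Cd200r3, a receptor of basophils and mast cells, summed to 188 counts over the 4 MPP3 WT libraries and 90 over the 4 MPP4 WT libraries, and Il4, a cytokine of basophils, to 108 and 38. Mrgprb2, a receptor of connective tissue mast cells, summed to 10 counts in MPP3 WT and 71 in MPP3 KO and had none in MPP4, and the related Mrgprb1 had none in any library. These genes were chosen after their values were seen and were under the filter.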
